A study of Mus musculus with 4 samples.

Results

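The CpGs described here are those that both whole-genome libraries of mouse E14 embryonic stem cells list and that had an intermediate level in the first. They were taken from the first library's list on chromosomes 1 to 19 as rows with a level from 20% to below 90% whose position was also listed on the plus strand in the second library. This gave 6187 CpGs, called members below, out of 70483 autosomal rows in that level range and 326228 autosomal rows at any level. The remaining 64296 rows of the range, not listed in the second library, are the comparison set. The members were thus chosen by measured values, the first library's level and the second library's listing, and both are given as a description only. The data were 4 libraries made by methylation-assisted bisulfite sequencing (MAB-Seq) of genomic DNA. Both whole-genome libraries came from wild-type E14 cells, and the labels do not say whether these were separate cultures. The other two were reduced-representation libraries of E14 cells, cut with MspI, an enzyme that cleaves at CCGG. One of these was from cells given a control shRNA and the other from cells in which an shRNA targeted Tdg. The extent of the Tdg depletion was not analysed here.

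MAB-Seq looks for 5-formylcytosine and 5-carboxylcytosine. TET enzymes make these bases by oxidising 5-methylcytosine through 5-hydroxymethylcytosine, and the glycosylase TDG removes them, after which repair puts back a plain cytosine. Embryonic stem cells express TET enzymes strongly and are a standard system for this cycle. In the assay, the bacterial enzyme M.SssI first methylates unmodified CpG cytosines. A CpG cytosine that is converted in bisulfite reads may then have carried one of the oxidised bases or been missed by M.SssI. Other sources of a converted read were not examined here. The level of a site is the percentage of its reads that were converted, after a background correction by the authors, and it does not tell these sources apart.

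The first library gives a level for each plus-strand CpG and the 5 reference bases centred on its cytosine. The second gives a p-value and no level. The depth of the first library is unknown, as is the second library's coverage of positions it does not list. Chromosome 1 stood apart in the first list, with 48.3 intermediate-level rows per Mb against 18.8 to 39.6 on chromosomes 2 to 19, while the second library had 17.5 plus-strand sites per Mb there against 16.6 to 34.9. Results are therefore also given without it. Sites that share reads are not independent and each library is 1 sample, so no test was made, and the 95% intervals below cover counting error only.

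Neighbouring contexts in the first list overlap where CpGs lie close together, and in all 13796 such overlaps on autosomes the shared bases agreed, with 0 mismatches. Short stretches of the mm9 reference could therefore be read from the list itself. The stretches below come from 6 of the 8 runs with the most members, a run being successive members at most 100 bp apart. Each is the longest stretch of its run without a gap, on the plus strand, and capitals mark the CpGs of members. Most hold only part of their run's members, such as 7 of 19 on chromosome 5. The runs not shown had shorter stretches, of 19 bp on chromosome 12 and 15 bp on chromosome 10. In the latter 1 of 4 CpGs was a member.
Chromosome 1 run, chr1:120909880-120909912: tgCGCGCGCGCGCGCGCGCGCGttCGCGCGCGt
Chromosome 4 run, chr4:33762406-33762444: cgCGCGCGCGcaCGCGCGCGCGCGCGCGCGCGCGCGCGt
Chromosome 10 run, chr10:121336575-121336599: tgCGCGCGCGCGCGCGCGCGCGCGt
Chromosome 13 run, chr13:115199221-115199263: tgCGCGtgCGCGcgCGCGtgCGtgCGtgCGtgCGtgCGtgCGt
Chromosome 3 run, chr3:29895135-29895157: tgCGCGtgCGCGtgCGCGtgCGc
Chromosome 5 run, chr5:135997562-135997582: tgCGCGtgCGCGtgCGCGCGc
All 6 are simple repeats in which CG dinucleotides mostly follow each other directly or alternate with TG. Only CpGs of the first list at most 5 bp apart can be joined by their contexts. The close spacing within the stretches is therefore in part fixed by how they were read.

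The same kinds of sequence also occurred among rows that the second library did not list. The longest runs of the comparison set, with rows at most 10 bp apart and none listed, included the following stretches, shown for contrast with capitals at the CpGs of their rows.
Chromosome 6 run, chr6:28152679-28152711: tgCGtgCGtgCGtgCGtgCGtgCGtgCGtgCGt
Chromosome 5 run, chr5:91731138-91731184: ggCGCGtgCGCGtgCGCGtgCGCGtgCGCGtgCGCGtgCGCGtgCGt
Chromosome 1 run, chr1:41106669-41106715: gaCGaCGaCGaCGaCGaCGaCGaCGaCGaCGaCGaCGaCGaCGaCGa
The first has TGCG as its unit, the second CGCG alternating with TG, and the third the unit GAC. The CpGs in the third run are 3 bp apart, whereas those in the members' stretches shown are 2 or 4 bp apart.

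How often a row was listed in both libraries rose with its level. Over the range, 8.78% of rows were listed, against 6.02% of all autosomal rows. The latter include 65802 rows at level 0, of which 0.846% were listed. By class of 10 points the share was 6.79% (6.53% to 7.05%) at 20% to 30%, 7.43% at 30% to 40%, 10.2% at 40% to 50%, 12.2% at 50% to 60%, 15.95% at 60% to 70%, 18.7% at 70% to 80% and 19.2% (17.4% to 21.1%) at 80% to 90%. Just below the range, from 10% to 20%, it was 6.65%, and from 90% upwards 22.4%. At the bounds themselves, 53 of the 696 rows at exactly 20% and 4 of the 15 at 89.9% were listed, while 13 of the 78 rows at 19.9% and 5 of the 20 at 90% just outside were too. Members had a median level of 35.1% (quartiles 25.1% and 55.4%) and the comparison set one of 29.3% (23.5% and 41.1%).

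**Figure D1:**
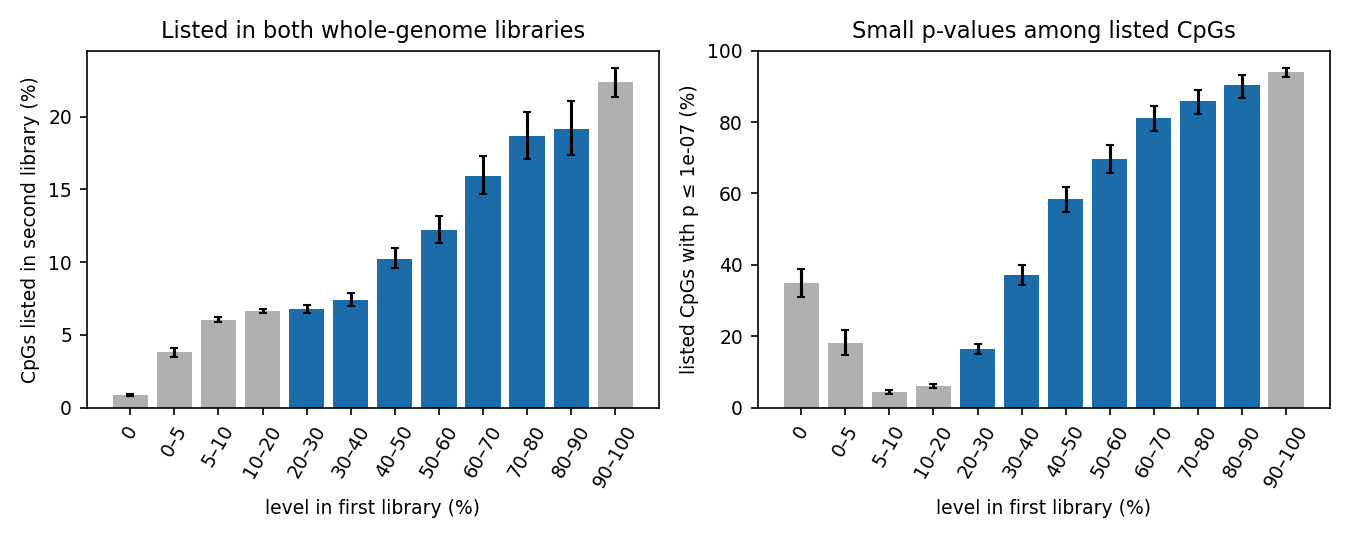
Left, percentage of autosomal CpGs of the first library that the second library listed on the plus strand, by level in the first library (%). Right, percentage of those listed CpGs with a p-value at or below 1e-07. Bars in blue are the intermediate range, error bars are exact 95% intervals, and both shares rise through the blue range, the left one from 6.79% to 19.2%.

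The second library's p-value at a member was smaller where the first library's level was higher. A p-value depends on read depth as well as on level, so this does not compare the levels of the libraries. Of the 6187 members, 1683 or 27.2% had a p-value deposited as 0, 2761 or 44.6% (43.4% to 45.9%) had one at or below 1e-07, and 1536 or 24.8% had one above 0.001. Among all 57348 plus-strand autosomal sites of the second library these shares were 8.61%, 13.6% and 56.4%. With the binomial background of the second library, a p-value of 0 needs at least 12 converted reads. The share of members at or below 1e-07 was 16.3% (14.9% to 17.9%) in the class from 20% to 30%, 58.4% from 40% to 50% and 90.4% (86.8% to 93.3%) from 80% to 90%. The median p-value fell over these 3 classes from 0.000555 through 1.08e-09 to 0.

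Reads could be recovered for the 3426 members with larger p-values, which leaves out the strongest sites. These had a median of 14 reads (quartiles 11 and 20), of which a median of 5 were converted. Their median uncorrected level was 30.0% (29.6% to 30.0%) in the second library and 29.4% (29.1% to 29.9%) in the first, and 47.3% of them were higher in the second. A site had to reach the p-value for listing and stay above 1e-07 for its reads to be recovered, which bounds the second library's level from both sides, so these levels do not compare the libraries. At the 865 members with at least 20 recovered reads, the medians were 20% in the second and 31.9% in the first library, and 12.1% were higher in the second. At such depths a higher level would have given a p-value too small for reads to be recovered, which caps the second library's values in this subset. Under these bounds, Spearman's rho between the uncorrected levels of the libraries was 0.034 across the 3426 members and -0.075 across the 865. The 5 largest p-values of members lay between 0.00993545 and 0.00995476, and in the first library these CpGs had levels from 24.7% to 75.7%. At the other end the p-values deposited as 0 were tied, and the smallest above 0 was 1.11e-16.

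Members were concentrated in contexts with CG or TG before the CpG and a C or T after it. These 4 contexts held 2391 members, 38.6% of all members against 12.2% of the comparison set, and 23.3% (22.5% to 24.1%) of their 10259 rows were listed. Over all other contexts the share was 6.30% (6.11% to 6.50%). The 4 were picked for having the highest shares listed, so the choice fixes the direction of this contrast and it is a description only. The pair of 4-base contexts GCGC and GCGT held 2705 members, 43.7% of all members, against 19.9% of the comparison set. Of their 15494 rows, 17.5% (16.9% to 18.1%) were listed in the second library, and of the rows in all other contexts 6.33% (6.13% to 6.54%). The pair's share was above the chromosome's own share on all 19 autosomes. This pair was chosen with these values known and includes the 4 contexts above. The contrast and the count of autosomes are therefore a description only. Of the 5-base contexts, CGCGC was highest, with 692 of 2318 rows listed or 29.9% (28.0% to 31.8%). CGCGT followed with 25.4% of 1036 rows, TGCGT with 21.8% of 4795 and TGCGC with 18.5% of 2110. With A or G as the first base the same cores were not high: AGCGT had 6.37%, GGCGT 6.15%, AGCGC 6.01% and GGCGC 5.63% of rows listed. After the 4 leading contexts came TACGT, at 11.1% of 560 rows (8.59% to 13.97%). The most common context among members was TGCGT with 1046, ahead of CGCGC with 692, TGCGC with 390, CGCGT with 263 and GGCGG with 195.

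The lowest shares were all below 4.3%. TCCGC was lowest with 43 of 1169 rows listed, 3.68% (2.67% to 4.92%), followed by GTCGC with 4.02%, AACGC with 4.02%, ATCGC with 4.25% and TCCGG with 4.29%. The intervals of these 5 overlap. The MspI site CCGG made up 6.11% of members and 11.3% of the comparison set, with 4.95% of its 7639 rows listed. A context and its reverse complement describe the same double-stranded sequence read from opposite strands, yet some such pairs differed. GCGT had 17.7% (16.9% to 18.5%) and ACGC 5.46% (4.73% to 6.28%) of rows listed, and GCGG had 7.42% (6.79% to 8.10%) against 4.91% (4.36% to 5.51%) for CCGC. For the other 4 pairs the intervals overlapped, with 6.59% for GCGA and 5.08% for TCGC, 8.41% for ACGG and 7.28% for CCGT, 7.21% for ACGA and 6.48% for TCGT, and 5.76% for CCGA and 5.54% for TCGG.

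The context difference was also present at like levels, again for the pair chosen with these values known. With contexts weighted to the same level classes, GCGC and GCGT together had 15.5% of rows listed and the others 6.40%. Members in these contexts nevertheless had higher levels, with a median of 46.3% against 29.3% for members in other contexts. In the comparison set the medians were 32.1% and 28.7%. The share of members with a p-value of 0 was 41.3% in GCGC and GCGT and 16.3% elsewhere.

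The context difference went together with spacing. In GCGC and GCGT, 36.9% (35.2% to 38.7%) of rows were listed when the nearest other CpG of the first list was 2 bp away, 24.3% at 3 or 4 bp, 20.96% at 5 or 6 bp and 12.3% at 7 to 10 bp. Beyond 1000 bp the share was 7.33% (6.38% to 8.38%). In other contexts it was 12.1% (9.69% to 15.0%) at 2 bp and 5.40% (5.07% to 5.74%) beyond 1000 bp. Among rows with no other CpG of the first list within 100 bp, 7.39% (6.65% to 8.19%) of those in GCGC or GCGT and 5.68% (5.42% to 5.95%) of the others were listed. Taken apart, such lone rows had 8.38% (7.33% to 9.52%) listed in GCGT and 6.18% (5.18% to 7.31%) in GCGC. The interval for GCGC includes the 5.68% of the other contexts. For the 4 leading contexts the share of such lone rows was 9.85% (8.59% to 11.2%). CGCGC, the context with the highest share, had 11 of 244 lone rows listed, 4.51% (2.27% to 7.92%). TGCGT had 12.2% (10.3% to 14.3%) of 1067.

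**Figure D2:**
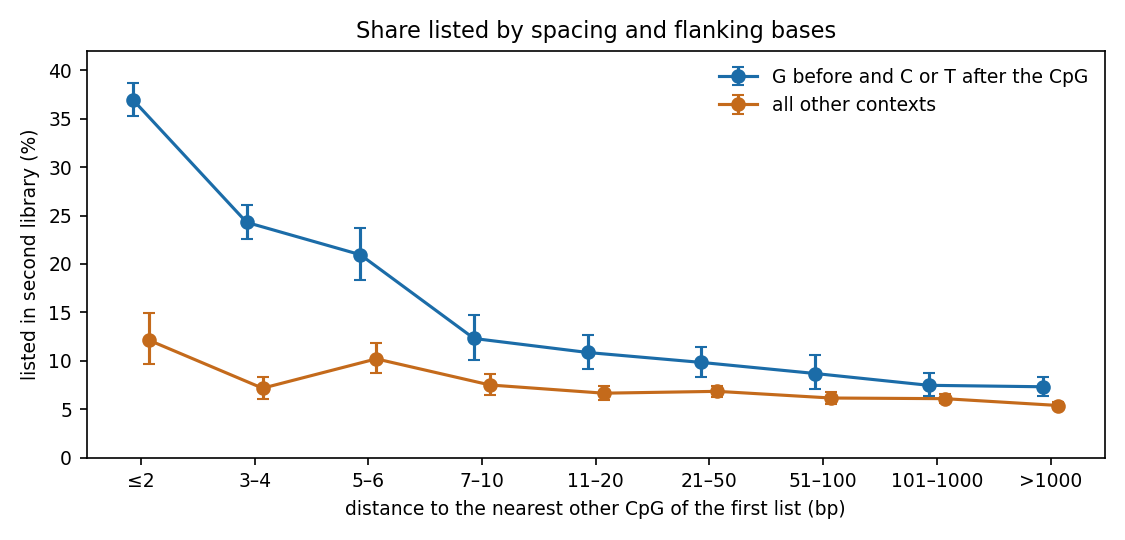
Percentage of intermediate-level CpGs that the second library listed (vertical axis), by distance in bp to the nearest other CpG of the first list (horizontal axis), for CpGs with G before and C or T after (blue) and for all others (orange). Error bars are exact 95% intervals, and the blue points fall from 36.9% at 2 bp to 7.33% beyond 1000 bp, while the orange ones lie between 5.40% and 12.1%.

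Members lay in tight runs more often than rows of the comparison set. Another row of the first list was within 100 bp of 67.7% of members (66.5% to 68.9%) and of 50.6% of the comparison set (50.2% to 50.96%), where 52.1% of all intermediate-level rows had one. The share was higher for members on all 19 autosomes. With the comparison set weighted to the members' level classes it was 52.4%. The previous member was exactly 2 bp away for 691 members, 11.2%, and 4 bp away for 399, 6.47%. In the comparison set the previous row of the set was at 2 bp for 1.61% and at 4 bp for 1.94%, although this set is denser and its median distance was 11702 bp against 87960 bp for members. Of distances up to 20 bp, 95.1% (93.9% to 96.1%) were even numbers among members and 75.6% (74.5% to 76.7%) in the comparison set.

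**Figure D3:**
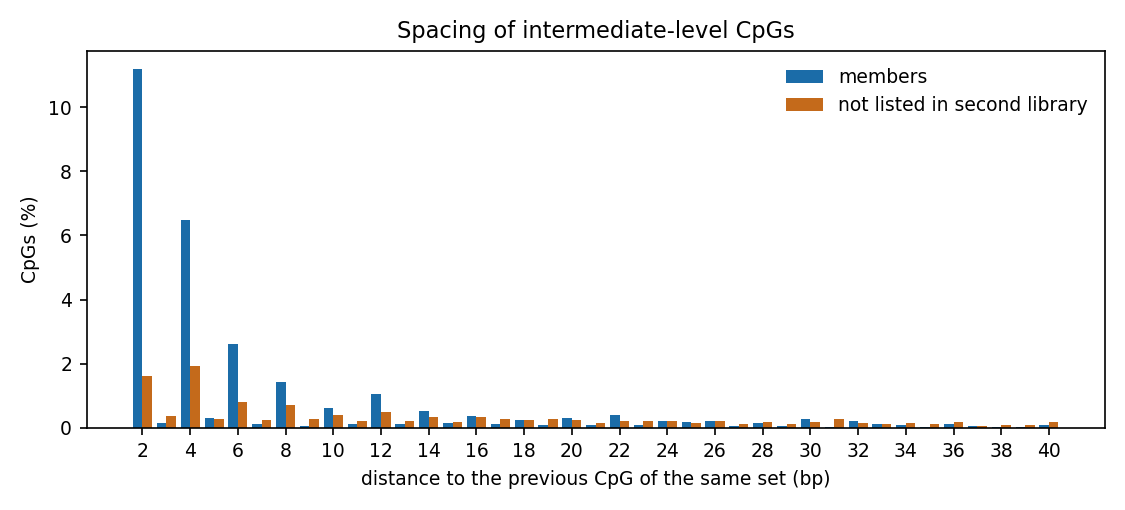
Percentage of CpGs (vertical axis) by distance in bp to the previous CpG of the same set (horizontal axis), for members (blue) and for intermediate-level CpGs not listed in the second library (orange). Even distances stand out, with 11.2% of members at 2 bp and 6.47% at 4 bp.

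Joined over at most 100 bp, the 6187 members formed 4293 groups. Of these, 3674 were single members, 59.4% of all members. At the other end, 158 runs of at least 5 members held 1395 members, 22.5%, and 53 of these runs had 10 or more. In runs of at least 5, the contexts CGCGC (506 members), TGCGT (410), TGCGC (182) and CGCGT (150) together made up 89.5%, and among single members 13.3%. Members in such runs had a median level of 54.0% and single members one of 28.5%. A p-value of 0 was found for 51.4% of the former and 13.9% of the latter. Within a run the levels differed by an SD of 10.2 points (median over the 158 runs, quartiles 7.34 and 14.8), and the runs' median levels ranged from 21.8% to 85.4% with an SD of 15.8 points.

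Rows of one run tended to be listed or missed together. Among 394 runs of at least 5 intermediate-level rows at most 10 bp apart, the second library listed no row in 172 or 43.7% and every row in 67 or 17.0%. In 46 more it listed above 75% of the rows but not all. The median level was 48.2% in runs with none listed and 56.3% in those with all listed. Rows of a run lie on the same reads and are not separate observations.

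The run with the most members lay on chromosome 12 at positions 3357178 to 3357620, with 45 members among 51 rows. Their levels ran from 39.0% to 86.3% with a median of 62.2%, and 21 of them had a p-value of 0, while the largest was 0.00995. All 45 were in one of the 4 contexts named above. The run on chromosome 4 (33762408 to 33762443) was listed whole, with 17 of 17 rows, each at a p-value of 0 and with levels from 33.5% to 89.5%. The one on chromosome 1 (120909882 to 120909931) had 18 of 18 rows listed, at levels from 28.9% to 86.8%, and the one on chromosome 3 (29895137 to 29895200) also had 18 of 18, at the lower levels of 21.4% to 48.5%. On chromosome 10, a run at 121336513 to 121336626 had 18 members of 23 rows and one at 120901316 to 120901460 had 16 of 20. The runs on chromosome 5 (135997470 to 135997581) and chromosome 13 (115199205 to 115199262) had 19 of 21 and 17 of 17 intermediate-level rows listed. Neither shRNA library listed a site within 100 bp of any of these 8 runs. Such sites were rare in general: 2.68% of all intermediate-level rows had a control shRNA site within 100 bp and 2.02% a Tdg shRNA site. No annotation of mm9 was used here, so the genes at these positions are not given.

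Windows of 10 kb in which the second library listed at least 10 plus-strand sites, called dense windows here, numbered 283 and held 20.04% of members (19.1% to 21.1%) and 1.02% of the comparison set. Every member is itself such a site and no row of the comparison set is, so the rule fixes part of this contrast, and leaving the windows out removes members for their neighbours in the second list. Of the 1240 members in dense windows, 79.4% belonged to runs of at least 5. Without dense windows, 12.1% of rows in GCGC and GCGT and 5.93% of the others were listed, and 60.5% of members against 50.2% of the comparison set had a row within 100 bp.

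Both strands of a CpG were seldom listed. The second library listed the minus-strand cytosine at 168 members, 2.72% (2.32% to 3.15%), and at 1.10% (1.02% to 1.18%) of the comparison set, where 1.24% of all intermediate-level rows had it. Outside dense windows the shares were 2.18% and 1.07%. The rule chose members by their listing in this same library, whose coverage elsewhere is unknown, so it may fix part of this contrast.

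All 19 autosomes held members. Chromosome 1 had the lowest share listed, 418 of 9373 rows or 4.46% (4.05% to 4.90%), and the next lowest were chromosome 15 with 7.69% and chromosome 10 with 7.73%. The highest shares were on chromosome 4 with 11.5% (10.6% to 12.5%), chromosome 18 with 11.4% and chromosome 7 with 11.01%, whose intervals overlap. Without chromosome 1 the share over the autosomes was 9.44% (9.21% to 9.67%), in GCGC and GCGT it was 18.7% and in other contexts 6.79%. Another first-library row was then within 100 bp of 67.8% of members and 48.8% of the comparison set. In steps of 10 Mb along chromosome 1, the share listed ranged from 0.332% to 12.2%. By number, chromosome 1 was not low: it had 2.15 members per Mb, inside the range of the others. That range went from 1.78 on chromosome 14, 1.86 on chromosome 16 and 1.89 on chromosome 6 to 3.47 on chromosome 11, 3.47 on chromosome 4 and 3.58 on chromosome 17. Rows of the comparison set on chromosome 1 also had a higher median level, 33.6%, than on the other autosomes together, 28.7%, whereas members had 34.5% there and 35.2% elsewhere. Of the first library's rows on chromosome 1, 32.3% were at intermediate level, against 16.8% to 24.0% on the others. These values were not corrected for CpG density or coverage.

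**Figure D4:**
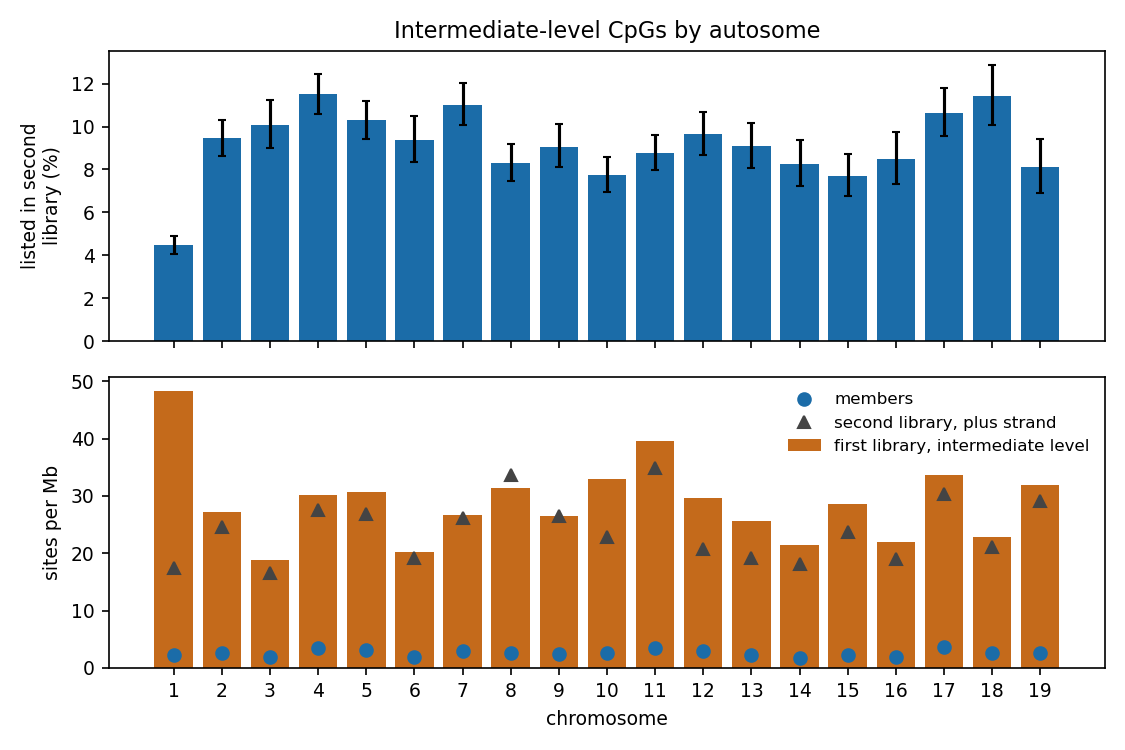
Top, percentage of intermediate-level CpGs of each autosome that the second library listed, with exact 95% intervals. Bottom, sites per Mb of each autosome for intermediate-level CpGs of the first library (bars), members (circles) and all plus-strand sites of the second library (triangles). Chromosome 1 has the lowest share listed, 4.46%, and the tallest bar, 48.3 per Mb, with 2.15 members per Mb.

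The shRNA libraries were separate samples that the choice of members did not use. MspI fragments cover a small part of the genome, so few members could be reached. Both lists give every position as plus strand, yet their sites fell on either base of a CpG, so a site at either base was counted. Tdg shRNA sites coincided with members more often than with the comparison set. At the same CpG, the Tdg shRNA library listed 80 members, 1.29% (1.03% to 1.61%), and 127 rows of the comparison set, 0.198% (0.165% to 0.235%), against 0.294% of all intermediate-level rows. The ratio of the shares was 6.55 (4.95 to 8.65), and the share was higher for members on 18 of 19 autosomes. The control shRNA library listed 30 members, 0.485% (0.327% to 0.691%), and 156 rows of the comparison set, 0.243% (0.206% to 0.284%), against 0.264% of all, a ratio of 2.00 (1.35 to 2.95), with members higher on 12 of 19. Dense windows held 41 of the 80 and 11 of the 30. Without these windows the ratio was 4.08 (2.85 to 5.84) for Tdg shRNA and 1.60 (0.993 to 2.57) for control shRNA. Weighting to the members' level classes gave 5.68 and 1.89, and leaving out chromosome 1 gave 6.14 and 1.88.

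Over larger distances the ratios were smaller. Within 100 bp, Tdg shRNA sites were found at 180 members, 2.91%, and at 1.94% of the comparison set, where 2.02% of all intermediate-level rows had one, a ratio of 1.5 (1.29 to 1.75). Outside dense windows the ratio was 1.21 (1.00 to 1.46). Within 1000 bp it was 1.10 (1.01 to 1.20), with a background of 7.59%, and 0.980 (0.884 to 1.09) outside dense windows. Without chromosome 1 it was 1.39 (1.18 to 1.63) within 100 bp and 1.01 (0.922 to 1.11) within 1000 bp. For control shRNA, 164 members, 2.65%, had a site within 100 bp against 2.69% of the comparison set and 2.68% of all rows, a ratio of 0.986 (0.842 to 1.16). Within 1000 bp members had fewer control shRNA sites, 7.55% against 9.91% with a background of 9.7%, a ratio of 0.762 (0.696 to 0.834). Each shRNA group was 1 library of unknown depth, so the libraries' ratios are set side by side and the difference between them was not tested.

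**Figure D5:**
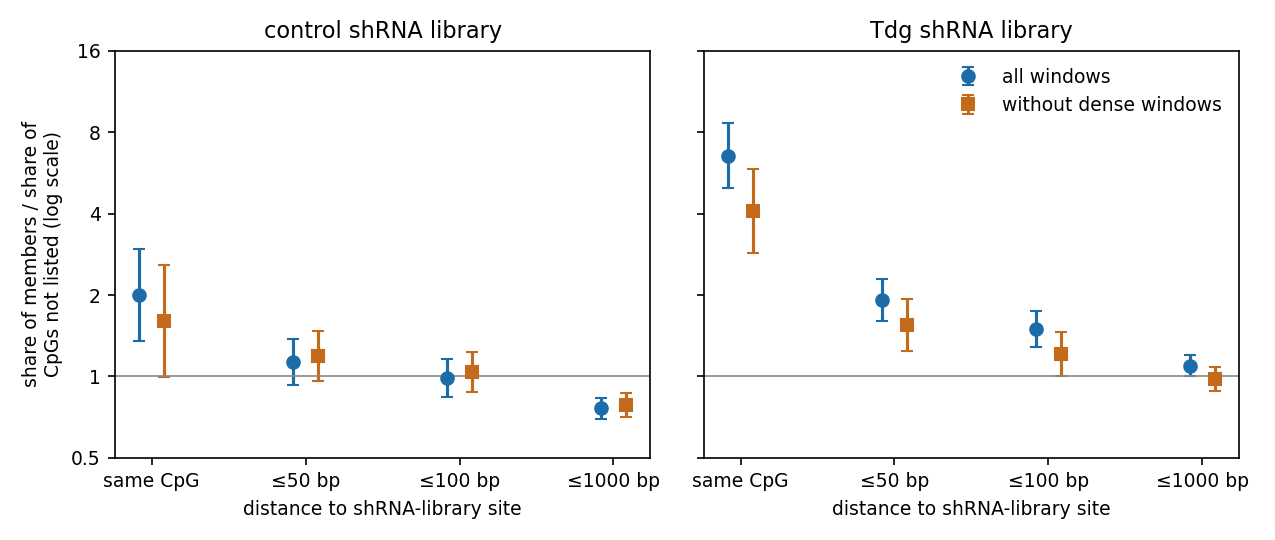
Share of members with an shRNA-library site divided by the same share of intermediate-level CpGs not listed in the second whole-genome library (vertical axis, log scale), by distance to the site, for control shRNA (left) and Tdg shRNA (right). Circles are all windows, squares leave out dense windows, error bars are 95% intervals of the ratio, and the grey line marks equal shares. The Tdg shRNA ratio falls from 6.55 at the same CpG to 1.10 within 1000 bp.

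At the CpGs of members, median shRNA-library levels were higher than at those of the comparison set. The 80 members listed with Tdg shRNA had a median level of 61.1% (39.4% to 71.8%) there and 47.0% in the first whole-genome library. Of them, 15 were below 20%, 44 in the intermediate range and 21 at 90% or more. The 127 rows of the comparison set had a median of 15.4% (12.5% to 17.3%) with Tdg shRNA and 36.6% in the first library, and 78 were below 20%. With control shRNA, the 30 members had a median of 53.7% (18.7% to 99.1%) and the 156 rows one of 11.7% (9.50% to 14.2%). In the first library the medians of these members and rows were 43.7% and 30.9%. Among the 30, 11 were below 20% with control shRNA, 8 were intermediate and 11 were at 90% or more. Outside dense windows the Tdg shRNA medians were 41.96% at 39 members and 15.1% at 123 rows. The control shRNA medians there were 36.6% (9.35% to 100%) at 19 members, 9 of them below 20%, and 11.7% (9.50% to 15.7%) at 153 rows, and these intervals overlap. Spearman's rho between Tdg shRNA and first-library levels was 0.47 across the 80 members and 0.40 across the 127 rows, which share libraries and in part reads. Of the 80 sites, 65 were at the same base as the member, the plus-strand cytosine, and 15 at the next base, against 59 and 68 of the 127.

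Both shRNA libraries listed 22 members, 0.356%, and 52 rows of the comparison set, 0.0809%. Dense windows held 10 of the 22 members, some of those named below among them. Of the 22, 10 were at 90% or more in both shRNA libraries, 6 of them at 100% in both, although the first whole-genome library had them at intermediate levels. This was not particular to members, since 19 of the 52 rows of the comparison set were also at 90% or more in both. Below 20% in both were 4 of the 22 members and 14 of the 52 rows. The member with the highest first-library level, in context AGCGG on chromosome 14 at position 14526399, had 84.1% there, a p-value of 0 in the second library and 100% in both shRNA libraries. On chromosome 9 at 35112904 (GGCGG) the first library gave 76.2% and the shRNA libraries 100%, and on chromosome 6 at 128710411 (CACGG) it gave 50.2% and they gave 100%. A pair 8 bp apart on chromosome 10, at 129979388 (GCCGT) and 129979396 (GCCGG), had 45.4% and 47.5% in the first library and 100% in both others. On chromosome 5, the members at 127607829 (GCCGG) and 52506981 (GCCGC) had 69.5% and 48.5% in the first library. Their levels were 97.4% and 99.1% with control shRNA and 98.6% and 100% with Tdg shRNA. At 52506981 both shRNA libraries listed the next base of the CpG and not that of the member. The member at 39983630 on chromosome 17 (CCCGT) had 51.4% in the first library, 99.98% with control shRNA and 99.97% with Tdg shRNA. The CpGs of all 8 of these members were above 97% in the shRNA libraries and at most 84.1% in the first wild-type library.

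Other members of the 22 were lower in at least 1 shRNA library than in the first library. On chromosome 16 at 14673994 (AGCGG) the level was 56.0% in the first library, 18.5% with control shRNA and 16.1% with Tdg shRNA. On chromosome 8 at 125697535 (GACGT) the levels were 69.8%, 36.6% and 22.7%, and on chromosome 1 at 9536202 (TGCGG) 52.8%, 37.4% and 39.4%. For the one on chromosome 1, both shRNA libraries listed the next base of the CpG. On chromosome 9 at 3037282 (ACCGT) they were 47.8%, 18.7% and 44.9%, and at 3002574 (CACGT) 47.1%, 48.5% and 21.5%. At both of these the shRNA libraries listed different bases of the CpG. The shRNA libraries listed the same base as each other at 18 of the 22, though not always the member's own base. At these 18 the level was higher with Tdg shRNA at 5, lower at 7 and equal at 6.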

How the data were processed

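Genomic DNA of E14 cells was analysed in 4 libraries. Per the labels' protocols, DNA was treated with M.SssI in an incubation repeated 3 times and again after adapter ligation, fragments of 180 to 350 bp were kept, and 15 PCR cycles followed bisulfite conversion. Build mm9, Bismark 0.10.1 and CASAVA 1.8 are named in the submitters' processing notes. How a site came to be listed, the filters and the read totals: not given in the sources used here. The authors deposited a percent level per site for the first whole-genome library and both shRNA libraries, and a p-value per site, at most 0.00997, for the second. All the deposited percentages between 0 and 100 equalled rounded fractions (3 decimals, 4 for the shRNA libraries) corrected for a background of 3%, 2.9% and 3.3% respectively (tolerance 1e-06 of the last decimal, backgrounds of 0.1% to 10% tried). Of the p-values above 1e-07 on the plus strand of autosomes, 99.99% matched exactly 1 pair of total and converted reads under a binomial background of 3.8% (relative tolerance 1e-08, up to 2000 reads).

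Starts were read as 0-based and are printed 1-based. Sites were joined by exact position and strand with Python 3.11.15, numpy 2.4.6, pandas 2.3.3 and scipy 1.17.1. Intervals of shares are exact (Clopper-Pearson), those of ratios use the log of the ratio, and those of medians use order statistics, all at 95%. PCR copies were not told apart. Scripts were tested on simulated data. Contexts named are the 5 with most members and the 5 highest and lowest by share listed among those with at least 100 rows. Chromosomes named are the 3 highest and lowest by share and by members per Mb. Runs named are the 8 with most members, the 5 smallest and 5 largest p-values are summarised, and single sites are taken from the 15 members of highest level listed in both shRNA libraries. The members, the GCGC and GCGT pair, the distance classes, the tight runs and the sequences shown were chosen with earlier results or these values known. Alternatives changed the level range, the listing rule, distances, dense windows and level weighting, and were extended by leaving out chromosome 1 and by using lone rows.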

Additional observations from a re-analysis of the deposited data

How the results depend on the processing

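The share of intermediate-level rows listed in both libraries, 8.78%, was 7.51% for levels from 10%, 8.51% up to 80%, 10.9% from 30%, 9.44% without chromosome 1, 7.21% without dense windows, 9.78% with either strand, 16.8% with any plus-strand site within 100 bp, 6.60% for p-values up to 0.001 and 4.64% up to 1e-05. The 6187 members became 13157 for levels from 10%, 3740 from 30%, 11853 within 100 bp and 3267 for p-values up to 1e-05. The ratio of shares with a control shRNA site within 100 bp, 0.986, was 2.00 at the same CpG, 0.762 within 1000 bp and 1.25 for lone rows, those with no other first-library row within 100 bp. For Tdg shRNA, 1.5 became 6.55 at the same CpG, 1.92 within 50 bp, 1.10 within 1000 bp, 1.21 without dense windows and 2.39 for lone rows. The ratio for a neighbouring row within 100 bp, 1.34, was 1.4995 within 50 bp, 1.16 within 1000 bp, 1.20 without dense windows, 1.29 weighted to level classes and 1.39 without chromosome 1. The previous member lay within 100 bp for 30.7% of members, within 50 bp for 29.4% and within 1000 bp for 34.1%. In GCGC and GCGT the share listed, 17.5%, was 15.5% standardised over level classes, 12.1% without dense windows, 15.0% for p-values up to 0.001, 7.39% for lone rows and 18.7% without chromosome 1. In the other contexts 6.33% became 5.93% without dense windows, 4.22% for p-values up to 0.001, 5.68% for lone rows and 6.79% without chromosome 1. Without dense windows, chromosome 1 had 3.78% and chromosome 4 had 8.52%. The members' median level was 37.0% before background correction. The excess of GCGC and GCGT together over other contexts kept its direction under each of these alternatives that was run on it. That pair was chosen with these values known, so this is a description only. The excess of neighbouring rows and that of Tdg shRNA sites at the same CpG also kept their direction under each alternative run on them. The causes of the changes were not tested. Of 78 values under alternatives, 20 stayed within the main interval, or for the number of members within 1.5 times, and 58 moved.

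Leaving out a whole-genome library was not possible, since the members need both, and each shRNA group had 1 library. No paired analysis was possible because each shRNA group had 1 library and no result comes from a test. Depth limits these results: members with recovered reads had at least 3 converted of at least 10 reads in the second library, and its coverage of rows it does not list is unknown.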

Other observations

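The same level range and listing rule were also applied outside chromosomes 1 to 19. On the X chromosome, 174 of 969 intermediate-level rows, 17.96% (15.6% to 20.5%), were listed in the second library, with a median level of 49.6%, and 37.4% of them were in the 4 contexts that led among autosomal members. On unplaced contigs, 560 of 902 rows, 62.1% (58.8% to 65.3%), were listed, with a median level of 40.5%, and 0.357% of them were in these 4 contexts.

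Some plus-strand sites of the second library near members were missing from the first list. Of 37699 such autosomal sites, 305 lay within 10 bp of a member and 354 within 10 bp of a row of the larger comparison set. Of members, 5.20% had one within that distance, against 0.527% of the comparison set. The rule chose members by their listing in this same library, and rows of the comparison set by its absence. Coverage of the second library elsewhere is unknown. The contrast was not separated from this choice and is a description only.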
